A study of Mus musculus with 24 samples.

Results

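The genes described here are 33 genes of the T cell and natural killer (NK) cell lineages, taken by symbol from 48820 entries that each of 4 count tables lists. All 33 were found in every table. Gdf2/Bmp10 HSC-KO mice (HSC-KO below) carried Gdf2 fl/fl and Bmp10 fl/fl alleles that Lrat-Cre deletes in hepatic stellate cells, which removes the ligands GDF2 (BMP9) and BMP10 from that source, and Smad4 cKO mice carried Smad4 fl/fl alleles with Vav1-Cre, which deletes SMAD4 in all hematopoietic cells, T and NK cells included. Liver macrophages (CD45+Ly6C-F4/80+CD64+) were sorted from HSC-KO mice and their controls (BMP9/10 control) and from Smad4 cKO mice and their controls (Smad4FF), and endothelial cells (ECs, CD45-CD31+) from HSC-KO mice and controls, all on C57BL/6 and aged 8 to 10 weeks. Whole livers of HSC-KO mice and controls were taken at 12 weeks. Each of the 8 groups held 3 libraries, 24 in all, and 3 mice gave both a macrophage and an EC library. Each library came from a separate mouse of its group, so the p values measure the spread between these mice.

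T cells recognise antigen with a T cell receptor whose chains (Trac, Trbc1, Trbc2) signal through the CD3 proteins, the kinases LCK and ZAP70 and the adaptor LAT, whereas NK cells read a set of activating and inhibitory receptors, many of them lectin-like proteins encoded side by side in the NK gene complex. Both cell types kill with granzymes and perforin, and both are abundant in the liver sinusoids beside Kupffer cells, the resident macrophages. Klrk1 encodes NKG2D, an activating receptor for stress-induced ligands, and Icos encodes a costimulatory receptor of activated T cells.

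The total count per library was 60911527 to 110879155, and at this depth 3 counts stood for 0.0258 to 0.0524 CPM (counts scaled to a common library total with TMM factors). The deletion was visible in the livers, where Gdf2 had 2036, 720 and 2030 counts in controls and 287, 178 and 189 in HSC-KO mice. Smad4 had 3894, 3185 and 4416 counts in Smad4FF macrophages and 1669, 1461 and 1289 in Smad4 cKO macrophages. By Xist and the Y-linked gene Ddx3y, both sexes occurred in each macrophage group of the HSC-KO comparison and in each EC group, all Smad4FF and Smad4 cKO libraries were male, and HSC-KO liver replicate 3 was the 1 male liver among 6. The sorted fractions held their own defining genes, with 19056 to 31251 CPM summed over 8 macrophage genes in the 12 macrophage libraries and 9599 to 13256 CPM over 8 pan-endothelial genes in the 6 EC libraries.

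Promoter sequence was available for 20 of the 33 genes in RefSeq (GRCm38.p6). In the 250 bases before a transcription start, the RUNX core motif TGTGGT, read on both strands, was found for 12 of these 20 genes (Gzma, Gzmb, Klrb1c, Klrc1, Klre1, Klrk1, Lck, Ncr1, Nkg7, Prf1, Txk and Zap70). It was in 13 of the 26 promoters that the 20 genes have, and in 14.0% of 32851 promoters of the same length. The SMAD motifs GGCGCC and GTCTAGAC were in 0 of their promoters, against 9.59% and 0.167% of all promoters, and neither overlaps the RUNX core. A match is a run of letters and not a site of binding. The 4 promoters below belong to the genes whose levels parted from the rest of the set, namely Klrk1 and Klrc1 in macrophages and Lck and Cd247 in ECs, with the RUNX core in capitals (on the other strand it reads ACCACA).
Klrk1, chr6:129623865-129624114, minus strand: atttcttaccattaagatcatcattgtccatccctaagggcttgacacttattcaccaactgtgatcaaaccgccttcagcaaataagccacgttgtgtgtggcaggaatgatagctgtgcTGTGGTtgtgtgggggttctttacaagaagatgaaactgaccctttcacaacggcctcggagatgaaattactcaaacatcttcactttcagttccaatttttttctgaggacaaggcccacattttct
Klrc1, chr6:129678974-129679223, minus strand: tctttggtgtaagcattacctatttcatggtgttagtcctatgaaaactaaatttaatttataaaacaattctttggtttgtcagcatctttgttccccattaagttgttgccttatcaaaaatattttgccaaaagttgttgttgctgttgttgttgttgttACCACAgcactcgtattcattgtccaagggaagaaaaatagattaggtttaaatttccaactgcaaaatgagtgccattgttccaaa
Lck, upstream start, chr4:129573642-129573891, minus strand: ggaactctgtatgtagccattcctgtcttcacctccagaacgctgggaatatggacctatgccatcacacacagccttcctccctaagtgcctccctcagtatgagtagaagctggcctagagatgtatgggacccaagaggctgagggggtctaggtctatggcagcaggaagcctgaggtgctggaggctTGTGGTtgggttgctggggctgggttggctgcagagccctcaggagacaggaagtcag
Cd247, chr1:165788431-165788680, plus strand, with no match: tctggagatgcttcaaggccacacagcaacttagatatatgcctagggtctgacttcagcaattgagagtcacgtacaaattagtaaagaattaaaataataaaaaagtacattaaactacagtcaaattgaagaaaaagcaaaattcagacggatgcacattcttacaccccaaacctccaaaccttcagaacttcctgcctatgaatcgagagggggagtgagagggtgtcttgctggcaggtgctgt
The motif began 129 bases before the start in Klrk1, 87 bases in Klrc1 and 58 bases in Lck, and a further Lck start at chr4:129558373-129558622 had no match. In the gene annotation of GRCm38, Klrk1 spans chr6:129610323-129623864 and Klrc1 chr6:129666015-129678973, both on the minus strand. Klrd1, which encodes the partner chain of the Klrc1 product, spans chr6:129591782-129598775 and Klre1 chr6:129577905-129585827, so that these 4 lie in the same stretch of chromosome 6. Icos spans chr1:60977927-61000320 on the plus strand, close to Cd28 at chr1:60716800-60773359.

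**Figure D1:**
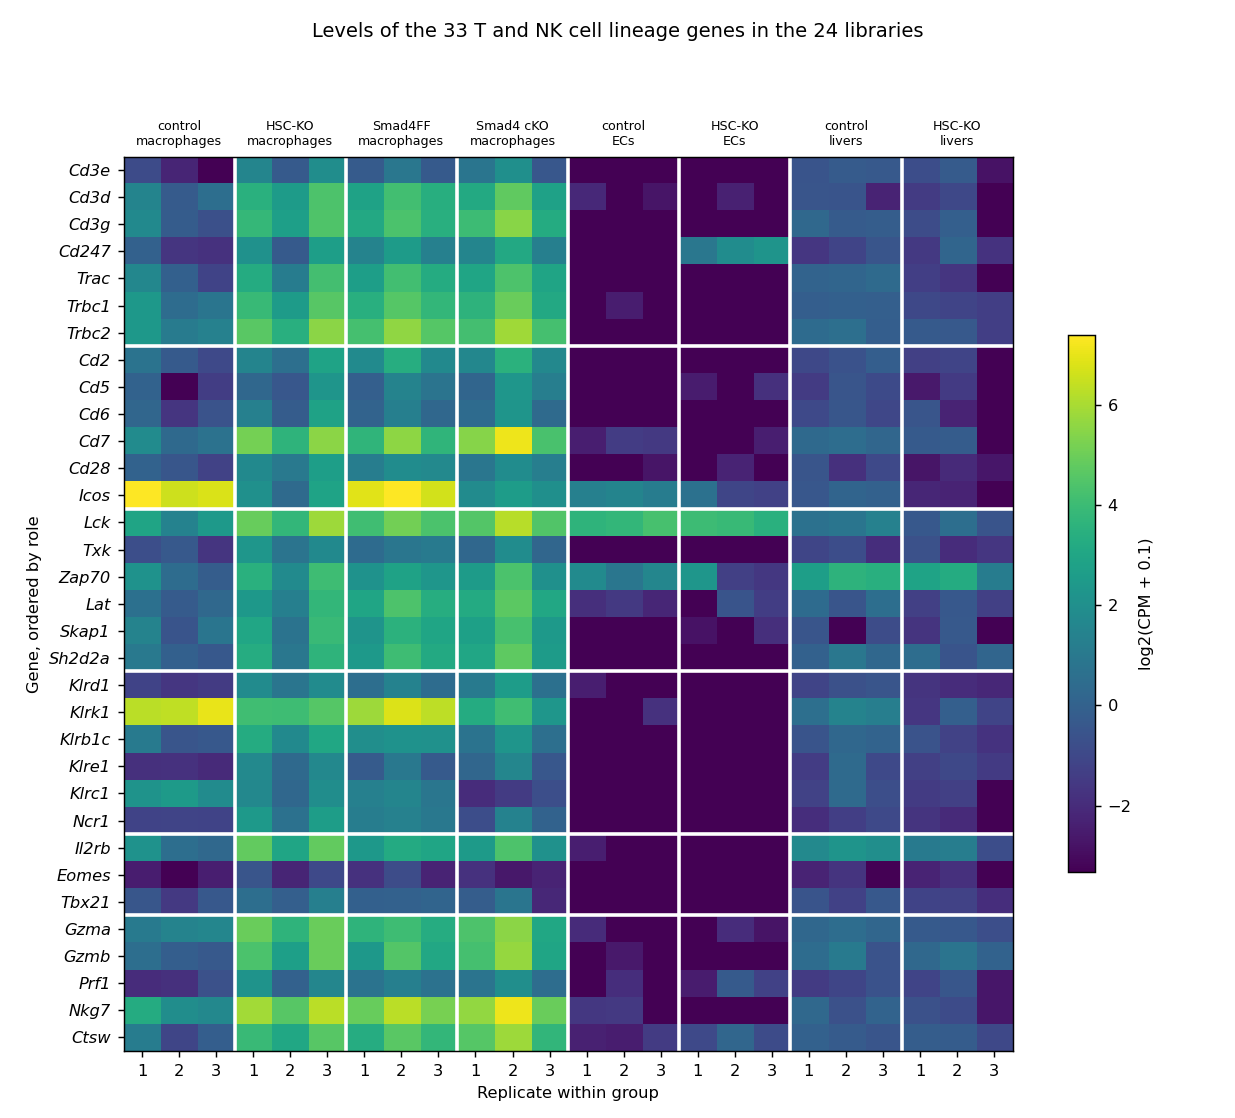
Levels of the 33 genes (rows, ordered by role) in the 24 libraries (columns, replicates 1 to 3 of each group), as log2(CPM + 0.1) by colour. Icos and Klrk1 are brightest in control and Smad4FF macrophages, most rows are brighter in HSC-KO than in control macrophages, and 17 rows hold 0 counts in all control ECs.

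In control macrophages, Icos and Klrk1 stood far above the other genes. Icos had 165, 94.8 and 108 CPM and Klrk1 77.2, 81.2 and 131 CPM, whereas Cd3e, the CD3 chain used to define T cells, had 0.437, 0.118 and 0 CPM and Ncr1, the NK receptor NKp46, 0.343, 0.353 and 0.349 CPM. Per length of exon, Icos ranked first of the 33 in these libraries with 35.8 ± 10.9 RPKM (SD, n = 3), Klrk1 ranked second with 13.4 ± 4.18 and Nkg7, a granule membrane protein, followed with 5.93 ± 3.84. Smad4FF macrophages had similar levels of both genes, with 119, 167 and 100 CPM of Icos and 55.8, 114 and 79.7 CPM of Klrk1. In these libraries Nkg7 came first per length with 52.2 ± 28.4 RPKM, and Icos ranked 3 with 37.4 ± 10.0.

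Whole livers had less of both. Control livers held 0.652, 1.00 and 0.908 CPM of Icos and 1.42, 2.67 and 2.28 CPM of Klrk1, and the log2 difference of control macrophages from control livers was 6.93 ± 0.32 for Icos (SE, adjusted p = 1.3e-08, edgeR's quasi-likelihood test) and 5.26 ± 0.60 for Klrk1 (adjusted p = 1.2e-05). Klrc1, which encodes the inhibitory receptor NKG2A, was higher by 2.51 ± 0.51 (adjusted p = 0.0016), Nkg7 by 2.38 ± 0.67, Trbc2 by 1.26 ± 0.46 and Lck by 1.2 ± 0.39. Zap70 (-2.44 ± 0.56) and Klre1 (-2.11 ± 0.71) were lower, and the other 25 genes were not called. A gene was called at a Benjamini-Hochberg adjusted p under 0.05 over all genes tested and an absolute log2 fold change above 1, and 59.0% of all genes were called in this contrast, so 8 of 33 is below the background. Against the same livers, Smad4FF macrophages had 23 genes called higher and 0 lower, where 29.5% of all genes were called higher and 29.5% lower. The sorted cells and the livers differ in extraction kit, age and table, which cannot be told apart from the sample type, and the tables were brought to 1 scale only by the joint fit.

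To set the macrophage levels beside the amount of T and NK cell transcripts in the same libraries, 6 T cell genes (Cd3e, Cd3d, Cd3g, Trac, Trbc1, Trbc2) and 3 NK genes (Ncr1, Klre1, Klrd1) were summed as anchors. The T anchor had 19.8, 5.89 and 6.43 CPM in control macrophages, 52.2, 129 and 68.2 in Smad4FF macrophages and 5.37, 5.34 and 4.44 in control livers. The NK anchor had 0.863, 0.765 and 0.751 CPM in control macrophages, 4.32, 6.97 and 3.86 in Smad4FF macrophages and 0.797, 2.02 and 1.44 in control livers. Transcripts of T cells were thus present in every sorted macrophage library, and their level was higher in the Smad4FF libraries than in all 3 control libraries of the HSC-KO comparison. For each gene, the level that the larger of both anchors would bring at the ratio seen in control livers was then divided by the measured level. Control livers contain macrophages themselves, the share takes the ratio of liver lymphocytes to hold in the sorted libraries, which was not tested, and it sets levels side by side from tables that were scaled separately.

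In control macrophages, the anchors would bring 1.47% of the measured Icos (2.02, 1.05 and 1.00% in the 3 libraries) and 4.66% of the measured Klrk1 (10.8, 3.05 and 2.06%). Klrc1 came next with 31.5%, though the library with the most T anchor had 60.1% and the others 13.9 and 24.1%. Nkg7 followed with 34.1% and Skap1 with 46.4%, and the median over the 33 genes was 160%. The 33 include the anchor genes themselves, whose shares are partly set by the anchors, so the median is not independent of them. In Smad4FF macrophages, with more T anchor, the shares were 10.9% for Icos, 30.1% for Nkg7, 42.0% for Klrk1 and 469% for Klrc1. Counted directly against the 6 T cell genes, Icos made up 837, 1611 and 1685% of their counts in control macrophages, 227, 129 and 147% in Smad4FF macrophages and 12.1, 18.8 and 20.5% in control livers. Klrk1 made up 391, 1379 and 2038%, then 107, 88.5 and 117%, and 26.5, 50.0 and 51.4%. Both genes therefore exceeded the liver ratio in each of the 6 control macrophage libraries.

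**Figure D2:**
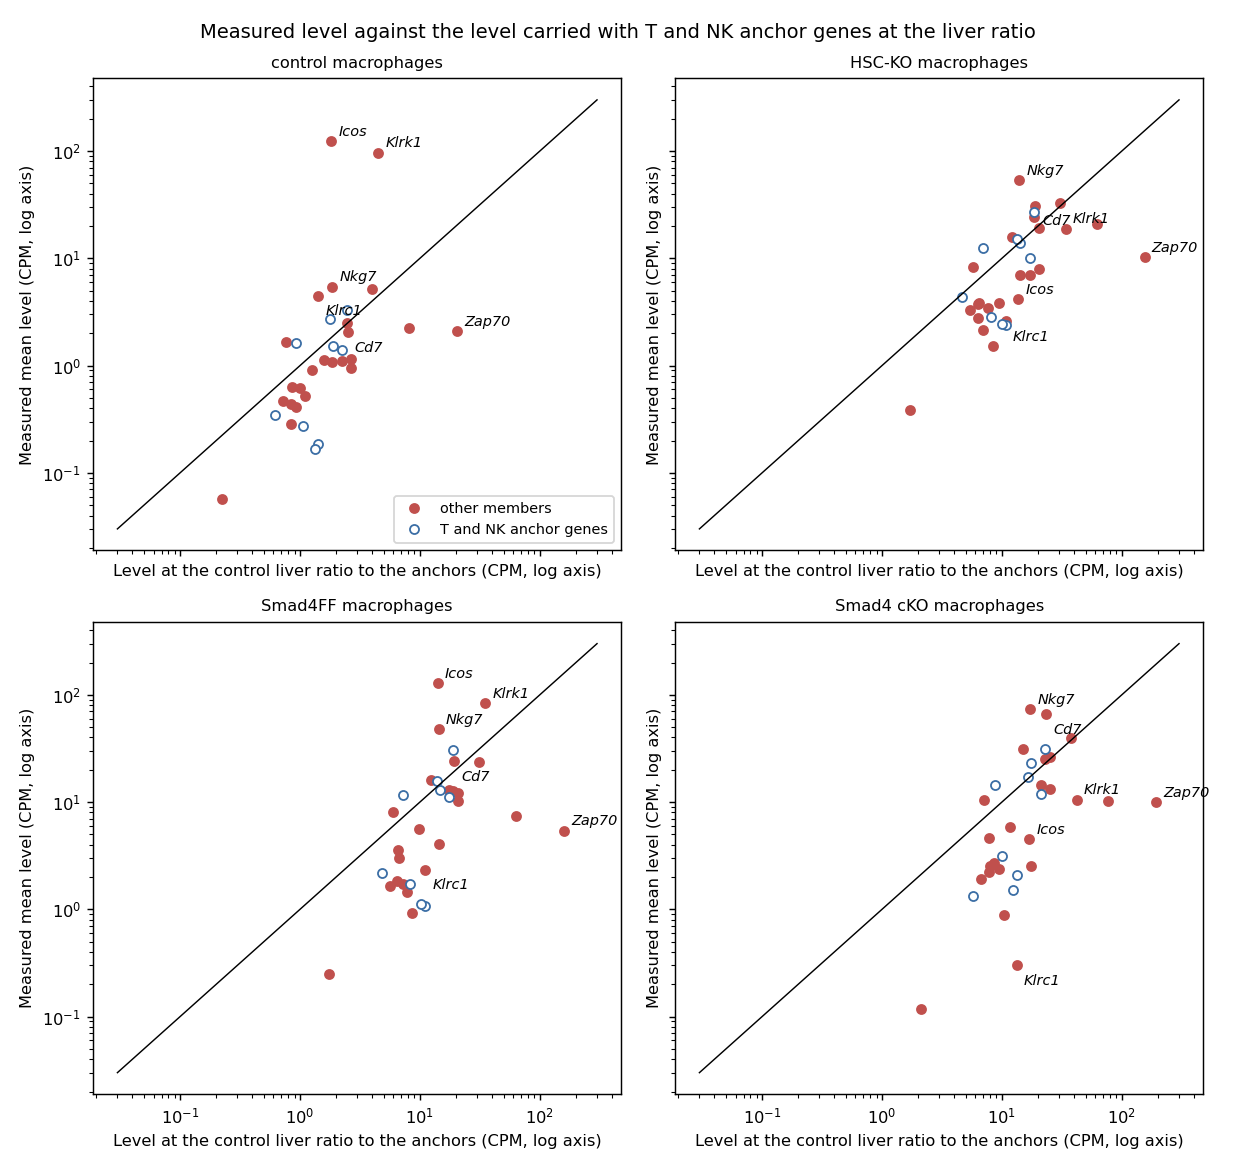
Measured mean level of each gene (vertical axis, CPM, log scale) against the level that the T or NK anchor genes, whichever gives more, would bring at the ratio of control livers (horizontal axis, CPM, log scale), for 4 macrophage groups. The line marks equality. Icos and Klrk1 lie far above it in control macrophages and below it in HSC-KO and Smad4 cKO macrophages.

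The HSC-KO comparison asked how macrophages changed when stellate cells no longer made GDF2 and BMP10. Of the 33 genes, 20 were higher, 2 were lower (Icos and Klrk1) and 11 were not called in HSC-KO macrophages, whereas 6.32% of all 16337 genes tested were called higher and 5.34% lower. The median log2 fold change of the 33 was 2.81, against 0.04 over all genes, and 30 of them had an unadjusted p under 0.05. In 22 genes every HSC-KO library lay above every control library (20.7% of all genes did so), and in 2 genes every HSC-KO library lay below (19.6%). In bulk RNA, fewer or more cells of a type and less or more RNA per cell cannot be told apart. Leaving out control replicate 2 or control replicate 3 left 14 genes called, 12 higher and 2 lower, and leaving out HSC-KO replicate 2, the HSC-KO library with the least T anchor, raised the number to 27.

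Icos had 13999, 8053 and 6202 counts in control macrophages and 356, 113 and 664 in HSC-KO macrophages, that is 4.06, 1.18 and 7.27 CPM after the deletion. Every HSC-KO library lay below every control, and the log2 fold change was -4.88 ± 0.63 (SE, adjusted p = 0.0018). Klrk1 had 6536, 6895 and 7500 counts in controls and 1516, 1561 and 2113 in HSC-KO mice (17.3, 16.4 and 23.1 CPM), with no overlap and a log2 fold change of -2.35 ± 0.25 (adjusted p = 0.00072). Klrc1 had 369, 476 and 202 counts against 268, 105 and 333, which overlapped (log2 fold change -0.79 ± 0.44, adjusted p = 0.26). The Icos and Klrk1 calls stood when any 1 library was left out, with a log2 fold change of -5.55 to -4.44 for Icos and -2.52 to -2.07 for Klrk1.

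The T cell receptor and CD3 genes went the other way. Trbc2, a constant region of the receptor's beta chain, had 436, 180 and 145 counts in control and 2179, 1025 and 4194 in HSC-KO macrophages, a log2 fold change of 3.05 ± 0.57 (adjusted p = 0.0093) that kept its call without any 1 library. Reads of Trbc1 and Trbc2, near-identical genes, could be split between them in ways the sources used here do not state. Cd3d had 233, 62 and 78 counts against 955, 558 and 1924 (2.96 ± 0.61, adjusted p = 0.014), Cd3g had 280, 66 and 29 against 1202, 615 and 1977 (3.17 ± 0.76, adjusted p = 0.025), and Trbc1 had 435, 107 and 96 against 1299, 549 and 2226 (2.47 ± 0.67, adjusted p = 0.039). Each HSC-KO library of these 4 genes was above each control library, and control replicate 1 was the highest control in all 4. The calls of Cd3g and Trbc1 were lost without control replicate 2 or 3 or without HSC-KO replicate 1 or 3 (adjusted p = 0.064 to 0.083 and 0.095 to 0.12), and that of Cd3d without control replicate 3 (adjusted p = 0.058).

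Cd3e, Trac and Cd247 were not called. Cd3e had 37, 10 and 0 counts in control and 245, 68 and 335 in HSC-KO macrophages (3.64 ± 1.16, adjusted p = 0.066), with no overlap. Trac, the alpha chain constant region, had 252, 75 and 20 counts against 836, 204 and 1668 (2.82 ± 0.93, adjusted p = 0.074), and Cd247, the zeta chain that carries the signal, 77, 18 and 11 against 370, 69 and 579 (3.08 ± 0.91, adjusted p = 0.053). In both, HSC-KO replicate 2 lay below control replicate 1. Without control replicate 1, these 3 genes were called (adjusted p = 0.031 to 0.035), and without HSC-KO replicate 2, Trac and Cd247 were (adjusted p = 0.046 and 0.026).

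Of the surface coreceptors other than Icos, Cd7 had 296, 99 and 87 counts in control and 3096, 1168 and 4149 in HSC-KO macrophages (3.90 ± 0.60, adjusted p = 0.004), and Cd28, the main costimulatory receptor of T cells, had 78, 54 and 19 against 288, 184 and 569 (2.59 ± 0.56, adjusted p = 0.016). Neither gene overlapped between the groups. The Cd28 call was lost without control replicate 2 (adjusted p = 0.061) or HSC-KO replicate 3 (adjusted p = 0.055). Cd2, Cd5 and Cd6 had log2 fold changes of 2.06 to 2.47 and overlapping groups, and were not called (adjusted p = 0.085 to 0.26).

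Among the signalling genes, the kinase Lck had 637, 220 and 301 counts in control and 2617, 1279 and 5087 in HSC-KO macrophages (2.69 ± 0.57, adjusted p = 0.015). Txk, a kinase of the TEC family, had 42, 58 and 12 against 430, 158 and 303 (2.81 ± 0.58, adjusted p = 0.013), and Lat, the scaffold of the receptor's signal, 122, 63 and 65 against 451, 228 and 1218 (2.65 ± 0.63, adjusted p = 0.023). In these 3 genes the groups did not overlap. The adaptor Sh2d2a had 161, 74 and 38 counts against 852, 169 and 1127 (2.78 ± 0.73, adjusted p = 0.033), with HSC-KO replicate 2 only just above the highest control in counts and below it in CPM. Lck lost its call without control replicate 3 (adjusted p = 0.058), Txk without HSC-KO replicate 1 (0.056), Lat without control replicate 2 or 3 or HSC-KO replicate 3 (0.056 to 0.084), and Sh2d2a without control replicate 2 or 3 or HSC-KO replicate 1 or 3 (0.095 to 0.11). Zap70 and Skap1 were not called, at 2.28 ± 0.75 and 2.33 ± 0.82.

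NK receptors other than Klrk1 and Klrc1 were higher in HSC-KO macrophages. Ncr1 had 29, 30 and 20 counts in control and 472, 144 and 563 in HSC-KO macrophages (3.64 ± 0.56, adjusted p = 0.004). Klre1 had 15, 16 and 8 against 279, 110 and 279 (3.85 ± 0.53, adjusted p = 0.0025), and Klrd1, which encodes CD94, had 29, 19 and 15 against 302, 162 and 315 (3.37 ± 0.45, adjusted p = 0.002). The lowest HSC-KO library of each was above the highest control, and the 3 calls stood without any 1 library. Klrb1c, the gene of the NK1.1 antigen of C57BL/6 mice, had 165, 52 and 38 counts against 830, 312 and 747 (2.69 ± 0.59, adjusted p = 0.017) and lost its call without control replicate 2 or 3 or HSC-KO replicate 1 (adjusted p = 0.061 to 0.063). Klrk1 thus moved against 4 of the 5 other NK receptor genes in the same libraries.

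The interleukin receptor chain Il2rb, which IL-2 and IL-15 share, had 362, 115 and 65 counts in control and 2441, 738 and 2524 in HSC-KO macrophages (3.21 ± 0.67, adjusted p = 0.014), a call lost without control replicate 2 or 3 (adjusted p = 0.056 and 0.051). The T-box factors Eomes (7, 0 and 5 against 54, 11 and 38 counts) and Tbx21 (53, 21 and 39 against 119, 80 and 214) were not called, with adjusted p = 0.16 and 0.11. All 5 granule genes were called higher. Gzma had 165, 223 and 169 counts in control and 2641, 1165 and 2779 in HSC-KO macrophages (3.27 ± 0.38, adjusted p = 0.0012), and Gzmb 114, 70 and 40 against 1801, 613 and 2785 (4.31 ± 0.59, adjusted p = 0.0025). Both granzymes, and Nkg7 and Ctsw (a protease of cytotoxic cells), kept their calls without any 1 library.

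Nkg7 had 800, 316 and 177 counts in control and 5203, 2321 and 6976 in HSC-KO macrophages (3.29 ± 0.56, adjusted p = 0.0063) and Ctsw 184, 31 and 47 against 1345, 780 and 2199 (3.82 ± 0.69, adjusted p = 0.0081). Perforin, Prf1, had 13, 15 and 30 counts against 387, 86 and 269 (3.29 ± 0.75, adjusted p = 0.02), a call lost without control replicate 1 or 2 or HSC-KO replicate 1 or 3 (adjusted p = 0.052 to 0.077). HSC-KO replicate 2 was the lowest HSC-KO library for each of these 5 granule genes and still exceeded every control. With the deletion, Nkg7 (58.4 ± 29 RPKM) took the first place per length that Icos had in controls, and Icos fell to rank 22 of 33.

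**Figure D3:**
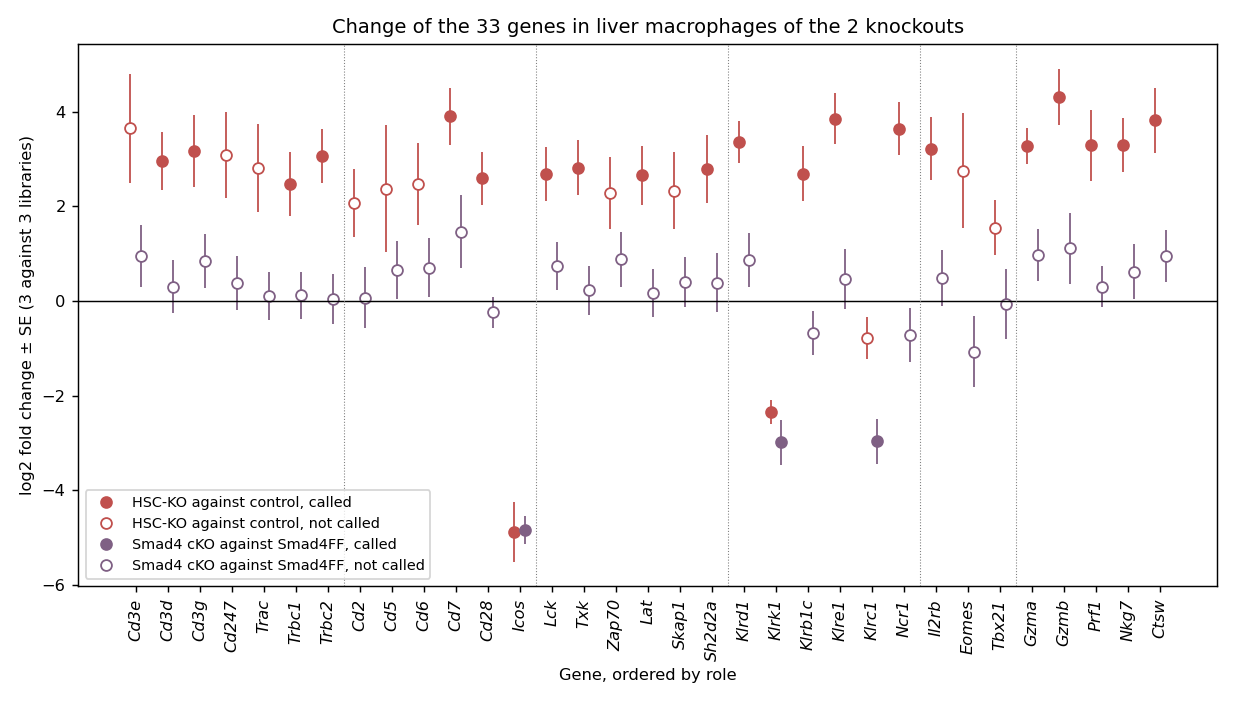
Log2 fold change ± SE of each gene in liver macrophages, HSC-KO against control (red) and Smad4 cKO against Smad4FF (purple), 3 against 3 libraries each, genes ordered by role with dotted lines between roles. Filled points were called, and Icos and Klrk1 lie below 0 and are filled in both comparisons.

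After the deletion, the T anchor stood at 76.5, 31.6 and 135 CPM and the NK anchor at 12, 4.36 and 12.7 CPM. At the liver ratio, the anchors would bring 329% of the Icos and 180% of the Klrk1 measured in HSC-KO macrophages, against 1.47% and 4.66% in controls. With the ratio of HSC-KO livers in place of control livers, these were 68.0% and 94.5%. Icos made up 5.30, 3.74 and 5.39% of the T anchor counts in HSC-KO macrophages, below the 12.1 to 20.5% in control livers. The 30 genes other than Icos, Klrk1 and Klrc1 summed to 69.8, 26.3 and 30.9 CPM in control and 375, 142 and 544 CPM in HSC-KO macrophages.

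Genes listed as markers of other cell types moved in the same libraries, and their part in these results was not tested. Of 8 pan-endothelial genes, 3 were called lower (Cdh5, Erg and Pecam1). Cdh5 is also counted by the paper among the genes of Kupffer cell identity, and it was higher in control macrophages than in control livers (2.35 ± 0.18). It had 282, 256 and 197 CPM in control and 0.889, 0.765 and 2.68 CPM in HSC-KO macrophages. The 7 other genes of the pan-endothelial list summed to 51.8 to 228 CPM in control and 11.2 to 51.7 CPM in HSC-KO macrophages. Of 4 monocyte genes, Ccr2 (3.29 ± 0.44, adjusted p = 0.0021) and Ly6c2 (2.73 ± 0.77, adjusted p = 0.044) were called higher and Plac8 (-4.38 ± 0.63, adjusted p = 0.0031) lower, Chil3 was at 0 in the controls, and the list summed to 90.4 to 185 CPM in control and 40.1 to 99.96 CPM in HSC-KO macrophages. That of 10 B cell genes was 155 to 220 against 612 to 813 CPM, with 2 called higher (Ighm and Cd79b) and Ms4a1 and Pax5 not called, and that of 7 dendritic cell genes was 7.18 to 11.6 against 17.3 to 37.2 CPM, with 2 called higher. Defining macrophage genes, 8 in all, summed to 25482 to 25622 CPM in control and 19056 to 20664 CPM in HSC-KO macrophages, with 0 of 8 called (4 at an unadjusted p under 0.05, edgeR). Csf1r, Adgre1 and Cd68 were lower by edgeR (adjusted p = 0.012, 0.022 and 0.03), but by less than the size for a call (log2 fold change -0.77, -0.56 and -0.73). Of 6 hepatocyte genes, which summed to 242 to 853 CPM in control and 328 to 508 CPM in HSC-KO macrophages, Tat was called lower (7.58, 7.91 and 14.3 against 0.695, 0.577 and 0.701 CPM, -3.91 ± 0.33, adjusted p = 0.0003). No gene of the other 5 lists was at 0 in all libraries of either group.

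Hcst (DAP10) and Tyrobp (DAP12), the adaptors through which NKG2D signals, were not called. Hcst had 22.4, 24.9 and 26 CPM in control and 17.5, 24.1 and 19.2 CPM in HSC-KO macrophages (-0.27 ± 0.16, adjusted p = 0.29). Among 12 ligand and cytokine genes of these receptors, of which 11 were tested, 1 was called higher and 1 lower, where 6.32% and 5.34% of all genes were. Icosl, the ligand of ICOS, had 954, 574 and 548 counts in control and 6308, 5921 and 4591 in HSC-KO macrophages (2.74 ± 0.23, adjusted p = 0.00028), a gene singled out here after its values were seen, so that ligand and receptor genes moved in opposite directions. Raet1d, a ligand of NKG2D, had 252, 363 and 118 counts against 45, 27 and 107 (-2.24 ± 0.57, adjusted p = 0.032).

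A further 50 T and NK genes were followed beside the 33. Of the 45 tested in this comparison, 23 were called higher and 0 lower, with a median log2 fold change of 3.08. Over all genes, 6.32% were called higher and 5.34% lower. Klrg1, an inhibitory receptor, had 0 counts in all 3 controls and 62, 92 and 142 in HSC-KO macrophages, at least 20.5-fold higher when set against 3 counts per library. It is among the called genes but entered the test only through the HSC-KO libraries, so nothing is read from its call. Runx3, a transcription factor of cytotoxic lymphocytes that macrophages can also express, had 479, 296 and 125 counts against 30724, 20669 and 18312 (6.07 ± 0.43, adjusted p = 0.00014). Sh2d1b1, which encodes the adaptor EAT-2, had 99, 74 and 50 against 3243, 5836 and 5092 (5.72 ± 0.27, adjusted p = 3.7e-05). In HSC-KO macrophages Runx3 stood at 350, 217 and 201 CPM, above the summed T anchor of the same library in all 3. Gzmc (4.83 ± 1.32), Klrb1a (4.79 ± 1.16) and Klrb1b (4.70 ± 1.07) were next in size, each with at most 14 counts in any control library.

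The Smad4 comparison asked which changes follow from loss of SMAD4 inside hematopoietic cells. Of the 33 genes, 0 were called higher and 3 lower (Icos, Klrk1 and Klrc1), against 5.43% of all 17517 genes called in either direction (2.76% higher and 2.67% lower), and 3 had an unadjusted p under 0.05. The other 30 genes overlapped between the groups, and their log2 fold changes ranged from -1.07 to 1.46. The median of the 33 was 0.37, with 0.04 over all genes. As T and NK cells lose SMAD4 with this Cre too, lymphocyte and macrophage transcripts both come from deleted cells.

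Icos had 11506, 15058 and 10335 counts in Smad4FF and 340, 697 and 329 in Smad4 cKO macrophages (3.50, 6.00 and 3.93 CPM), a log2 fold change of -4.84 ± 0.30 (adjusted p = 0.00018). Klrk1 had 5418, 10314 and 8228 counts against 930, 1986 and 401 (9.58, 17.1 and 4.79 CPM), a log2 fold change of -2.99 ± 0.48 (adjusted p = 0.01). Klrc1 had 235, 259 and 181 counts against 15, 30 and 41 (-2.97 ± 0.47, adjusted p = 0.0098). In the 3 genes each Smad4 cKO library lay below each Smad4FF library, as in 14.5% of all genes. Icos and Klrc1 kept their calls without any 1 library, whereas Klrk1 lost its call without Smad4 cKO replicate 1 (-2.92, adjusted p = 0.058).

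The T cell genes had no such separation. Cd3e had 72, 161 and 73 counts in Smad4FF and 163, 451 and 55 in Smad4 cKO macrophages (0.95 ± 0.66, adjusted p = 0.48), and Trac 615, 1601 and 968 against 746, 2408 and 623 (0.10 ± 0.50, adjusted p = 0.93). In each group replicate 2 was the highest for both genes. The T anchor stood at 64.4, 184 and 51.7 CPM in Smad4 cKO macrophages, beside 52.2, 129 and 68.2 in Smad4FF. Ncr1 had 216, 227 and 191 counts against 47, 298 and 78 (-0.72 ± 0.56, adjusted p = 0.53), and Klrb1c 369, 384 and 434 against 155, 539 and 117 (-0.68 ± 0.46, adjusted p = 0.46). Smad4 cKO replicate 2 was above all Smad4FF libraries for both genes and the other 2 below, and without it Klrb1c was called lower (-1.45 ± 0.22, adjusted p = 0.015).

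Gzma had 1190, 1475 and 1017 counts in Smad4FF and 2021, 5371 and 693 in Smad4 cKO macrophages (0.97 ± 0.55, adjusted p = 0.37), Gzmb 501, 2074 and 864 against 1826, 6030 and 651 (1.11 ± 0.75, adjusted p = 0.47), and Cd7 1227, 4247 and 1311 against 4185, 15838 and 1661 (1.46 ± 0.78, adjusted p = 0.34). Cd7 had the highest log2 fold change of the 33 here, and its groups overlapped. Of the remaining genes named above, Lck was at 0.74 ± 0.50, Nkg7 at 0.62 ± 0.58, Il2rb at 0.48 ± 0.59 and Cd28 at -0.25 ± 0.34, with adjusted p of 0.47 to 0.74. Genes of those lists also moved here, and their part in these results was not tested. Of 8 macrophage genes, which summed to 26721 to 31251 CPM in Smad4FF and 20609 to 25083 CPM in Smad4 cKO macrophages, Adgre1 was called lower (-1.31 ± 0.14, adjusted p = 0.0018). Of 8 pan-endothelial genes (608 to 1759 against 1204 to 1525 CPM) Cdh5, which the paper also counts as a Kupffer cell gene, was called lower (-2.72 ± 0.14). Of 4 monocyte genes (131 to 165 against 8.54 to 22.4 CPM) Plac8 was called lower (-4.02 ± 0.34). Of 10 B cell genes (199 to 280 against 303 to 409 CPM) Ighm and Cd79b were called higher and Cd22 lower, and of 7 dendritic cell genes (25.7 to 28 against 14.5 to 23.2 CPM) Siglech was called higher and Clec9a lower. No gene of these 5 lists was at 0 in all libraries of either group. At the liver ratio, the anchors would bring 378% of the Icos, 402% of the Klrk1 and 4413% of the Klrc1 measured in Smad4 cKO macrophages, against 10.9%, 42.0% and 469% in Smad4FF macrophages. With the ratio of HSC-KO livers, the shares were 78.3% of Icos and 211% of Klrk1 in Smad4 cKO macrophages and 2.27% and 22.0% in Smad4FF macrophages.

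Among 49 of the 50 further T and NK genes tested here, 4 were called higher and 1 lower, where 2.76% and 2.67% of all genes were. Sh2d1b1 had 161, 192 and 151 counts in Smad4FF and 8714, 10638 and 5503 in Smad4 cKO macrophages (5.56 ± 0.23, adjusted p = 4.7e-05). Gzmc (3.92 ± 0.52), Cd244, the receptor that signals through EAT-2 (3.33 ± 0.48), and Runx3 (1.41 ± 0.29) were higher, and Klrc2, the neighbour of Klrc1, was lower with 27, 56 and 42 counts against 8, 6 and 9 (-2.43 ± 0.58, adjusted p = 0.046). Klrc1 and Klrc2 are close relatives, and how reads that fit both were counted is not stated. Icosl had 542, 513 and 585 counts against 1324, 1798 and 1120 (1.33 ± 0.15, adjusted p = 0.002).

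**Figure D4:**
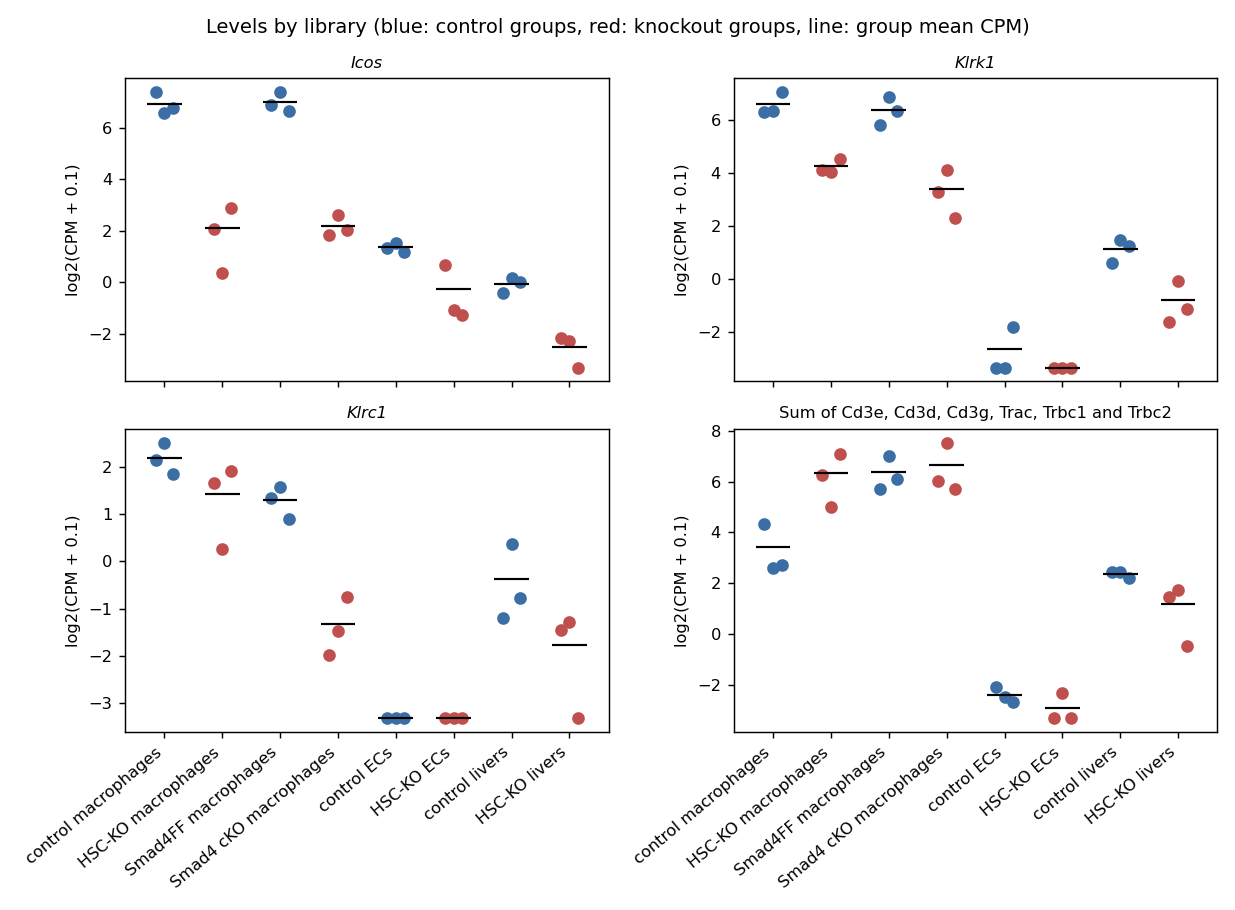
Levels of Icos, Klrk1, Klrc1 and the summed T anchor genes in each library, as log2(CPM + 0.1), for the 8 groups on the horizontal axis (blue: control groups, red: knockout groups, line: log2 of the group mean). Icos and Klrk1 are low in both knockouts, while the T anchor is high in HSC-KO, Smad4FF and Smad4 cKO macrophages alike.

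Whether both knockouts changed a gene by different amounts was tested as an interaction over the 12 macrophage libraries, in which 1.46% of all 18263 genes were called higher and 1.22% lower. For Icos the HSC-KO change minus the Smad4 cKO change was 0.01 ± 0.68 on the log2 scale (adjusted p = 1.0), and for Klrk1 0.69 ± 0.56 (adjusted p = 0.61). A difference between the 2 knockouts was thus not detected at these genes, which does not show that the changes were equal. Klrc1 differed by 2.22 ± 0.68, which was not called (adjusted p = 0.11). Ncr1 (4.41 ± 0.86, adjusted p = 0.02), Klrb1c (3.42 ± 0.81, adjusted p = 0.045) and Cd28 (2.88 ± 0.68, adjusted p = 0.044) were called, all with the larger change in HSC-KO macrophages. The other 27 genes had differences of 1.45 to 3.87 and adjusted p of 0.06 to 0.64, and the median of the 33 was 2.56 against 0.08 over all genes. The number called moved from 0, without control replicate 2 or 3 of the HSC-KO comparison, to 9, without Smad4 cKO replicate 2, and was 1 without any other single library except control replicate 1 and HSC-KO replicate 2 (3 each). Of the further T and NK genes, Runx3, Cd4 and Cxcr3 were called, all with the larger change in HSC-KO macrophages. Klrg1 was also called, but it had 0 counts in every control of the HSC-KO comparison, so nothing is read from its call. Cd4, the coreceptor of helper T cells that macrophages can also express, rose from 19.4, 11.1 and 8.96 to 184, 128 and 132 CPM in HSC-KO macrophages (3.49 ± 0.32, adjusted p = 0.00038), and its changes differed by 2.81 ± 0.56 (adjusted p = 0.022). Runx3 differed by 4.71 ± 0.51 (adjusted p = 0.00081), whereas Sh2d1b1 differed by 0.21 ± 0.31 (adjusted p = 0.82).

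In ECs, most of the 33 genes were not seen. In control ECs 17 and in HSC-KO ECs 20 of them had 0 counts in all 3 libraries. Cd3e, Cd3g, Trac and Trbc2 had 0 counts in all 6, which at this depth allows at most 0.0318 to 0.0485 CPM each (3 counts), and Cd3d had 11, 0 and 4 against 0, 7 and 0. The T anchor was 0.134, 0.0808 and 0.0543 CPM in control ECs and 0, 0.0977 and 0 in HSC-KO ECs. Klrk1 had 0, 0 and 14 counts in control and 0 in all HSC-KO libraries, Ncr1 and Klrc1 had 0 in all 6, and Gzma had 12, 0 and 0 against 0, 11 and 4. Against control livers, Lck was higher in control ECs by 2.54 ± 0.41 (adjusted p = 0.00018) and Icos by 1.09 ± 0.27 (adjusted p = 0.0037), where 57.0% of all genes were called. The other 31 were called lower, but 17 genes had 0 counts in all control ECs and entered this contrast through the livers, so that their direction was given by the filter, and with at least 10 counts in every library 2 genes were called.

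Lck was the gene of the set with the highest level in ECs. It had 1009, 830 and 1397 counts in control and 1531, 1067 and 906 in HSC-KO ECs, or 12.3, 13.4 and 19.0 against 16.2, 14.9 and 11.1 CPM, and ranked first per length with 5.09 ± 1.22 and 4.80 ± 0.91 RPKM. The groups overlapped (-0.08 ± 0.22, adjusted p = 0.84). Zap70 had 275, 108 and 216 counts against 460, 22 and 19 (-0.56 ± 1.05, adjusted p = 0.77), with HSC-KO replicate 1 above all controls and the other 2 below them. The control EC libraries held 0.0543 to 0.134 CPM of the T anchor beside 12.3 to 19.0 CPM of Lck.

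Icos was present in ECs at a low level. It had 199, 170 and 159 counts in control and 140, 27 and 26 in HSC-KO ECs, or 2.43, 2.75 and 2.16 against 1.48, 0.377 and 0.318 CPM. Every HSC-KO library lay below every control, as in 20.2% of all genes, but the change was not called (-1.74 ± 0.61, adjusted p = 0.09). Without HSC-KO replicate 1 it was called (-2.81 ± 0.41, adjusted p = 0.0036). Of the 7 macrophage genes tested in ECs (of 8), 5 were called lower. Mertk, a receptor for dying cells that was higher in control ECs than in control livers (2.68 ± 0.22), had 199.9, 311 and 253 CPM in control and 103.5, 58.7 and 80.3 CPM in HSC-KO ECs and made up most of the list. The 7 other macrophage genes summed to 46.1 to 61.7 CPM in control and 4.19 to 5.94 CPM in HSC-KO ECs. At the ratio of control macrophages, these 7 genes would bring 0.26 CPM of Icos to control ECs, of 2.44 measured, and 0.0251 CPM to HSC-KO ECs, of 0.726 measured. With Mertk in the sum, the figures were 1.48 and 0.413 CPM, and the choice to leave it out was made after the values were seen. For Klrk1 the 7 genes would bring 0.204 CPM to control ECs, where 0.0634 were measured. The corresponding figure for Lck was 0.0109 of 14.9 CPM, and for Zap70 0.00446 of 2.68 CPM. These figures set levels from separately scaled tables side by side.

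Cd247 was the 1 gene called in ECs, of 7 tested, where 7.68% of all 16053 genes were called higher and 6.01% lower. It entered the test only through its counts in HSC-KO ECs, so its values are given as a description, and with at least 10 counts in every library 0 genes were called. No read was counted for it in any of the 3 controls, and 170, 256 and 377 counts were seen in HSC-KO ECs (1.80, 3.57 and 4.61 CPM), at least 68.6-fold higher when set against 3 counts per library. The partners of its product in the T cell receptor complex were at or near 0 in the same libraries, as given above. The 10 B cell genes summed to 3.54 to 10.5 CPM in control and 148 to 381 CPM in HSC-KO ECs. Nearly all of this was Ebf1, a transcription factor of B cells and of some stromal cells, with 0, 0.178 and 0.326 CPM in control and 147.7, 380.04 and 301.3 CPM in HSC-KO ECs, while Ms4a1, Cd79b and Pax5 were among those at 0 in all HSC-KO ECs. The 4 monocyte genes summed to 11.1 to 13.6 CPM in control and 84.5 to 116 CPM in HSC-KO ECs. Of these, Ly6c2 had 0.207, 0.129 and 0.109 CPM in control and 77.02, 62.1 and 67.3 CPM in HSC-KO ECs (8.82 ± 0.28, adjusted p = 9.9e-06) and made up most of the HSC-KO sum. Plac8 was also called higher (1.14 ± 0.30, adjusted p = 0.033), and Chil3 was at 0 in all 6. Ccr2 had only 4, 8 and 0 counts in HSC-KO ECs (0.0424, 0.112 and 0 CPM). The part of either list in the Cd247 values was not tested. Exons of Cd247 overlap those of Gm16565 on the same strand, which had 0 counts in controls and 0, 36 and 58 in HSC-KO ECs, and of Pou2f1 on the opposite strand, which had 785, 624 and 490 against 1011, 788 and 888 (0.31 ± 0.19, adjusted p = 0.33). Whether counting used the strand is not stated, so reads of these genes cannot be told apart here. Ctsw (8, 5 and 19 against 39, 75 and 36 counts, 2.10 ± 0.73, adjusted p = 0.086), Prf1 (0, 10 and 0 against 7, 51 and 26) and Lat (14, 15 and 9 against 0, 42 and 23) were not called.

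**Figure D5:**
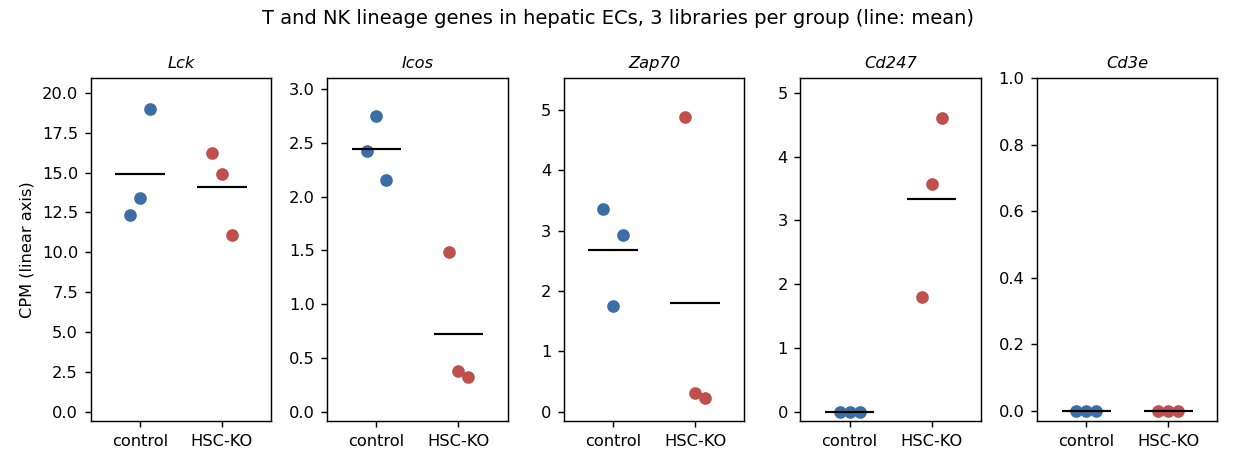
Level in CPM (linear axis from 0) of Lck, Icos, Zap70, Cd247 and Cd3e in control (blue) and HSC-KO (red) ECs, 3 libraries each, with the mean as a line. Lck is high in both groups, Cd247 appears in HSC-KO ECs, and Cd3e is 0 in all 6.

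The HSC-KO changes of macrophages and ECs were compared in 1 fit of 12 libraries, which treats the 3 mice that gave both kinds of library as separate. Of 32 genes tested, 4 were called higher and 2 lower, and of all 18325 genes 6.29% and 5.96%. The Icos change in macrophages minus that in ECs was -3.15 ± 0.90 (adjusted p = 0.037), and Lck differed by 2.77 ± 0.68 (adjusted p = 0.018). The calls of the 4 others rest on few EC counts, with Cd247 at 0 in all control ECs and Cd7, Klrd1 and Nkg7 at no more than 19 counts in any EC library, and nothing is read from them. Without HSC-KO macrophage replicate 1 or control EC replicate 1, 3 of the 32 or 33 genes tested were called.

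Among the 50 further T and NK genes, 11 were tested in ECs and 3 were called, where 13.7% of all genes were called. Lef1, a factor of naive T cells and of WNT signalling, had 1, 0 and 5 counts in control and 29, 45 and 43 in HSC-KO ECs (4.08 ± 1.05, adjusted p = 0.031), and Gzmk 4, 3 and 4 against 28, 15 and 57 (2.95 ± 0.76, adjusted p = 0.032). Both lay under the minimum count of 10 in every control and entered the test through the HSC-KO libraries. Tcf7, the relative of Lef1, was lower with 50, 53 and 31 against 12, 10 and 6 (-2.46 ± 0.61, adjusted p = 0.028). The levels of all 3 were under 1 CPM. Tyrobp fell by 2.92 on the log2 scale (SE 0.45, adjusted p = 0.004), and Il15ra, the chain that presents IL-15, rose from 12.8, 13.5 and 15 to 33.1, 39.3 and 40.8 CPM (1.45 ± 0.15, adjusted p = 0.00067).

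In whole livers, 32 of the 33 genes were tested and 0 were called by edgeR, where 2.48% of all 17118 genes were called (1.03% higher and 1.45% lower). DESeq2 called 2 lower (Icos and Klrk1), and 10 genes had an unadjusted p under 0.05 in edgeR. The values were negative in 31 of 32, with a median log2 fold change of -1.07 against -0.01 over all genes, and 15 genes had all HSC-KO livers below all control livers, as 10.9% of all genes did, and 0 genes had them above, as 8.80% did. HSC-KO replicate 3 was the lowest for most of the genes and is the 1 male liver, so that sex and this library cannot be told apart.

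Icos had 72, 77 and 82 counts in control and 9, 9 and 0 in HSC-KO livers (-3.45 ± 0.92, adjusted p = 0.13), and Klrk1 157, 205 and 206 against 17, 71 and 26 (-2.14 ± 0.54, adjusted p = 0.10). Neither gene overlapped between the groups. Icos was called without HSC-KO replicate 3 (-2.89 ± 0.56, adjusted p = 0.048) and Klrk1 without HSC-KO replicate 2 (-2.84 ± 0.49, adjusted p = 0.047). Trac had 107, 78 and 108 counts against 22, 18 and 0 (-2.63 ± 0.97, adjusted p = 0.29), whereas Cd3e had 64, 57 and 62 against 36, 63 and 3 (-0.65 ± 0.82, adjusted p = 0.84) and its groups overlapped. Ncr1 had 18, 23 and 37 against 15, 12 and 0 (-1.32 ± 1.09, adjusted p = 0.72), and Gzma 122, 102 and 94 against 53, 57 and 35 (-0.89 ± 0.36, adjusted p = 0.34), the latter without overlap.

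The T anchor stood at 2.63, 3.25 and 0.627 CPM in HSC-KO livers, below the 3 control livers given above, and the NK anchor at 0.710, 0.702 and 0.376 CPM, also below them. The 8 macrophage genes summed to 232, 368 and 301 CPM in control and 110.9, 123 and 80.9 CPM in HSC-KO livers, with 6 of 8 called lower, and their part in the liver values was not tested. Icos made up 4.59, 3.30 and 0% of the T anchor counts in HSC-KO livers, below each control liver. For Klrk1 the shares were 8.67, 26 and 57.8%, which overlapped the control livers.

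Zap70 was the gene of the set with the highest level in whole liver. It ranked first of the 33 per length in control livers (3.22 ± 1.00 RPKM) and in HSC-KO livers (2.10 ± 1.25), with 698, 928 and 951 against 538, 796 and 157 counts. The groups overlapped. The ratio of Zap70 to Lck counts was 4.23, 7.25 and 4.23 in control and 10.8, 6.98 and 3.74 in HSC-KO livers, while it was between 0.150 and 0.565 in the 12 macrophage libraries and between 0.0206 and 0.300 in the ECs. The whole-liver ratio was thus above that of every sorted library.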

How the data were processed

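Per the labels and the study's methods, libraries were sequenced on an Illumina platform, aligned with HISAT2 to mm10 (GRCm38) and counted with featureCounts. The authors deposited raw counts per gene in 4 tables. Tool versions, the gene annotation, and the handling of strand and of multiply mapped reads are not given in the sources used here. Counts were tested in R 4.3.3 with edgeR 4.0.16 (quasi-likelihood test, TMM factors, filterByExpr with a minimum count of 10 and a total of 15), with Benjamini-Hochberg adjustment over all genes, and genes were called at an adjusted p under 0.05 where the log2 fold change was over 1 in size. The scripts were tested on simulated data. SE is the absolute log2 fold change over the root of F. RPKM used exon lengths of GENCODE vM21. Floors of 3 counts cover counting error only. Exons of Cd3e, Cd7, Skap1, Eomes and Ctsw overlap a gene on the other strand, and Klr receptor genes have close relatives, so their counts are uncertain to that extent. Cd28 has a second entry at 0 counts, and its first was used.

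Values are given per library for Klrk1, Icos, Cd3e, Trac, Ncr1, Gzma and every gene of the set called in a knockout comparison. Of the other T and NK genes, adaptors and ligands that were called, only some are named. The genes and lists were chosen with earlier results of these data known. Alternatives were DESeq2 1.42.0, its size factors, library size alone, other count filters, glmTreat, a replicate block, an Xist covariate and each library left out. One marker gene is not reported here.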

Additional observations from a re-analysis of the deposited data

Results flagged for a closer look

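In macrophages, the HSC-KO change and the Smad4 cKO change differed by the test of the difference itself for 3 genes, with log2 differences of 4.41 for Ncr1, 3.42 for Klrb1c and 2.88 for Cd28. Without control replicate 2 or control replicate 3 of the HSC-KO comparison, or under glmTreat, 0 genes of the set were called. Fewer genes were also called by library size alone and with the replicate block, and more by DESeq2.

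Between macrophages and ECs, the HSC-KO change differed by the same kind of test for 6 of 32 genes, where 12.3% of all 18325 genes were called. The number was 2 under glmTreat and 3 to 7 without 1 library. The log2 difference, macrophages minus ECs, was -3.15 for Icos and 2.77 for Lck. It was -7.88 for Cd247, 6.65 for Cd7, 7.66 for Klrd1 and 9.89 for Nkg7, and these 4 values depend on the prior count, since the EC libraries of 1 or both groups hold 0 or few counts. Cd247 was at 0 in all control ECs and entered the test through the libraries that express it, so nothing is read from its call.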

How the results depend on the processing

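No direction of a named fold change reversed under any alternative run. The anchors' shares did cross the measured level when the ratio of HSC-KO livers was used, as given below. This held for Icos in HSC-KO and Smad4 cKO macrophages and for Klrk1 in HSC-KO macrophages. In HSC-KO macrophages 22 of the 33 genes were called, and glmTreat called 11, the replicate block 21, the Xist covariate 20, DESeq2 29, and the fits without 1 library 14 to 27. In Smad4 cKO macrophages 3 were called under every setting, the replicate block included, except for 2 to 4 without 1 library. In ECs 1 was called, with 3 by DESeq2, 2 by library size alone, 0 with at least 10 counts in every library and 1 to 3 without 1 library. In livers 0 were called, with 2 by DESeq2 and 0 to 1 without 1 library. Between both macrophage knockouts 3 were called, with 11 by DESeq2, 1 by library size alone, 0 by glmTreat, 1 with the replicate block and 0 to 9 without 1 library. Between macrophages and ECs 6 were called, with 10 by DESeq2, 2 with at least 10 counts, 2 by glmTreat and 3 to 7 without 1 library. Against livers, control macrophages had 8 called (3 with at least 10 counts, 5 by glmTreat), Smad4FF macrophages 23 (2 with at least 10 counts) and control ECs 33 (2 with at least 10 counts). The filter tests fewer genes, and the cause of the other shifts was not tested. Same-numbered samples correlated by -0.107 to 0.162 after removal of group means. In ECs the same-numbered pairs had 0.103, 0.117 and 0.0334, and the other pairs -0.130 to 0.0234. With so few libraries per group, these values cannot decide whether same-numbered samples share more than a number.

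With the HSC-KO liver ratio, the anchors' share of Icos was 0.305% in control, 68.0% in HSC-KO, 2.27% in Smad4FF and 78.3% in Smad4 cKO macrophages, and that of Klrk1 94.5% in HSC-KO, 22.0% in Smad4FF and 211% in Smad4 cKO macrophages. With CD3 genes alone as T anchor, the Klrk1 share in Smad4FF macrophages was 33.1%, and without 1 control liver it was 37.4 to 50.6%.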
